A study of Sus scrofa with 25 samples.

Results

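The genes described here are the calpains CAPN1, CAPN2 and CAPN3, the small calpain subunit CAPNS1, the calpain inhibitor calpastatin (CAST) and the cathepsins CTSB, CTSD and CTSL, read by their symbols in an Ensembl table of pig gene names. Of these 8 symbols, 7 had an identifier among the 25879 pig genes in the files. These were CAPN1 (ENSSSCG00000012999), CAPN2 (ENSSSCG00000029411), CAPN3 (ENSSSCG00000004728), CAPNS1 (ENSSSCG00000030149), CTSB (ENSSSCG00000023666), CTSD (ENSSSCG00000040793) and CTSL (ENSSSCG00000010948). CAST matched no identifier and has no value here, so calpain to calpastatin ratios were not analysed. CAPN2 did not pass the filter on low counts, and 6 of the 8 were tested for diet among 10992 genes. The libraries came from muscle of 25 crossbred pigs (Polish Large White sows and Landrace boars), 1 library per pig, fed from day 85 of life for 90 days. The control group (8 pigs) had 0 IU of vitamin D3 per kg of feed, D5000 (8 pigs) had 5000 IU/kg and D10000 (9 pigs) had 10000 IU/kg. Feeds had equal protein and energy, littermates were spread over the diets, and replicate numbers are the animal numbers in the labels. Neither the muscle nor the litter or sex of a pig is stated in the labels.

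Calpains are cysteine proteases of the cytosol that calcium activates. The large subunits CAPN1 (mu-calpain) and CAPN2 (m-calpain) each pair with CAPNS1, and calpastatin blocks both heterodimers. CAPN3 is the calpain typical of skeletal muscle, is anchored on titin, and its loss causes a limb-girdle muscular dystrophy in people. Cathepsins B and L are cysteine proteases and cathepsin D an aspartic protease of the lysosome, and cystatins inhibit the cysteine type. In skeletal muscle both systems cut myofibrillar and cytoskeletal proteins, in living fibres and in meat after slaughter, where calpain activity is tied to tenderness.

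Gene counts per library ran from 3310507 to 15177976, and reads assigned to genes made up 24.9% to 70.6% of the reads recorded in a file. Levels are given in CPM, the counts of a gene scaled to the summed gene counts of its library. The QuantSeq kit yields reads at the 3' end of a transcript and counts were not divided by length, so CPM of different genes were set side by side without a length term. Summed over the 3 muscle markers with an identifier, libraries held 11485 to 226697 CPM and no library lacked them. D10000 replicate 27 stood apart: it had the lowest sum of muscle markers, and its 6 adipocyte markers summed to 8849 CPM against 21.2 to 182 CPM in the other 24 libraries. D5000 replicate 18 (24.9%) and D10000 replicate 2 (28.4%) had the lowest assigned shares. The sum of 6 liver markers ran from 1967 to 27415 CPM with a median of 7438 CPM, in libraries of all diets. Results that rest on D10000 replicate 27 or on the 2 libraries of lowest assigned share are given with and without them where both were computed.

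CAPN1, the large subunit of mu-calpain, was present at a low level. Its CPM ran from 2.81 through a median of 11.7 to 17.7 in the control, from 5.83 through 8.61 to 20.0 in D5000 and from 3.03 through 10.8 to 20.4 in D10000. The diets overlapped over nearly their whole range, and the 3 libraries under 4 CPM were control replicate 28, D10000 replicate 27 and D10000 replicate 30. Each CAPN1 value rests on 23 to 309 reads. CAPNS1, the partner of CAPN1 and CAPN2, stood at a higher level than either in each of the 25 libraries. Its CPM ran from 96.8 through 113 to 164 in the control, from 98.3 through 141 to 253 in D5000 and from 61.6 through 130 to 1121 in D10000. The highest value belonged to D10000 replicate 27, at 4.44 times the next library, and without it the D10000 maximum was 178 CPM.

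CAPN3 was the most uneven of the 6 tested genes. In the control it ran from 0.891 through a median of 6.90 to 12.4 CPM, in D5000 from 0.204 through 6.75 to 71.4 CPM, and in D10000 from 0 through 2.82 to 94.2 CPM. The 2 highest libraries, D10000 replicate 2 (312 reads) and D5000 replicate 18 (309 reads), were those with the lowest assigned shares, and the third highest, D5000 replicate 6, stood at 18.7 CPM. D10000 replicate 27 had 0 CAPN3 reads, which allows up to 0.233 CPM (3 reads of its total). The within-diet SD of CAPN3, 1.97 on the log2 CPM scale, was larger than that of 99.4% of the 10992 tested genes (median 0.90 over all of them). Without D10000 replicate 27 the SD was 1.79, above 98.3% of genes. The SD without the 2 libraries of lowest assigned share was not computed. Genes were not matched for level in this ranking, and CAPN3 had 0 to 312 reads per library. For CTSB the SD was 0.43, and 4.03% of genes had a smaller one (0.27 and 0.282% without that replicate).

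CAPN2, the large subunit of m-calpain, gave 54 reads in the 25 libraries together. In the control it had reads in 2 of 8 libraries (pooled 0.223 CPM, exact Poisson 95% interval 0.1245 to 0.367), and in D10000 in 4 of 9 (pooled 0.453, interval 0.322 to 0.619). D10000 replicate 27 held 26 of these reads, and the other 8 D10000 libraries pooled to 0.177 CPM (interval 0.0944 to 0.303). In D5000 all 8 libraries had 0 reads (pooled 0 CPM, interval 0 to 0.0587). These intervals cover counting error only. Fitted without the filter on low counts (16486 genes, edgeR quasi-likelihood test), CAPN2 had an edgeR adjusted p of 0.359 for D5000 against control (unadjusted 0.00827), of 1 for D10000 against control and of 0.294 for D10000 against D5000 (unadjusted 0.0057), so no comparison passed. No fold is given for a gene with so few reads. Whether the annotated CAPN2 gene reaches the 3' end that QuantSeq reads was not tested.

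Of the cathepsins, CTSB was the most abundant and the most even. Its CPM ran from 129 through a median of 194 to 337 in the control, from 172 through 279 to 338 in D5000 and from 162 through 234 to 948 in D10000, where the next library after D10000 replicate 27 stood at 365. CTSD ran from 43.7 through 69.8 to 155 CPM in the control, from 28.6 through 40.9 to 112 in D5000 and from 17.2 through 65.6 to 369 in D10000. By CPM, 5 of 8 D5000 libraries lay under the lowest control library for CTSD, and 3 of 9 D10000 libraries did. On log2 CPM with TMM-scaled totals, D5000 replicate 15 (5.77) was not among them, as the lowest control library (replicate 28) stood at 5.65. D10000 replicate 27 was the highest library for CTSD too, and D10000 replicate 2, among the 2 highest for CAPN3, was the lowest. CTSL was a low transcript, from 1.503 through 6.41 to 17.5 CPM in the control, from 2.79 through 10.0 to 20.8 in D5000 and from 4.55 through 7.63 to 25.1 in D10000. By CPM, 7 of 8 D5000 and 8 of 9 D10000 libraries lay above the control median of CTSL, while 2 libraries of each dose exceeded the highest control library. These were D10000 replicate 2 (25.1 CPM), D5000 replicate 29 (20.8 CPM), D5000 replicate 18 (20.1 CPM) and D10000 replicate 27 (17.6 CPM), so that without the 3 libraries that stood apart only D5000 replicate 29 did. On log2 CPM with TMM-scaled totals, D5000 replicate 18 (3.73) and D10000 replicate 27 (3.80) lay below the highest control library (replicate 28, 4.09). On that scale D10000 replicate 13 (2.69) also fell below the control median, which lies midway between control replicates 17 (2.36) and 3 (3.09). How many of all tested genes have such counts of libraries outside the control range was not computed, for CTSD or for CTSL.

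**Figure D1:**
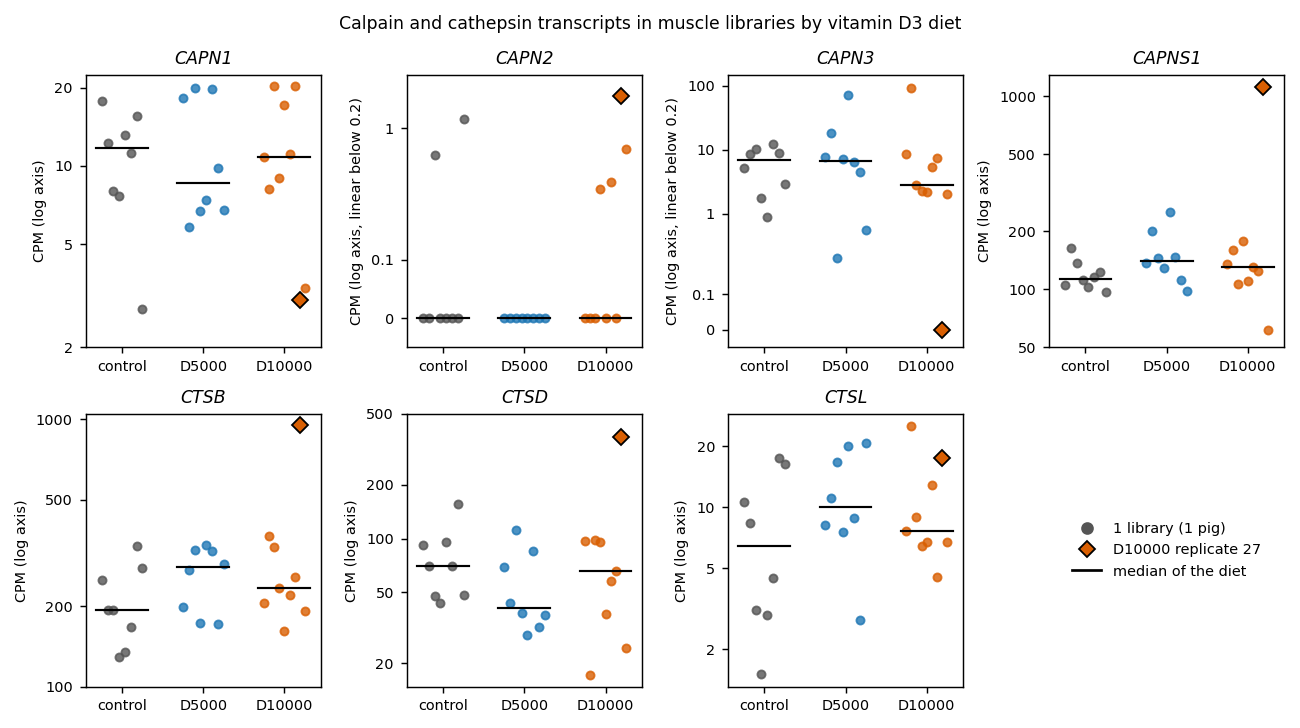
CPM of the 7 genes with an identifier, by diet, 1 point per library and a line at the median of the diet, on log axes (linear near 0 for CAPN2 and CAPN3). D10000 replicate 27 (diamond) is the highest library for CAPNS1 (1121 CPM), CTSB (948 CPM), CTSD (369 CPM) and CAPN2 (2.02 CPM) and the lowest for CAPN3 (0 CPM), and apart from it the 3 diets overlap.

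By median over the 25 libraries the order was CTSB (234 CPM), CAPNS1 (128 CPM), CTSD (65.6 CPM), CAPN1 (10.8 CPM), CTSL (8.35 CPM), CAPN3 (5.33 CPM) and CAPN2 (0 CPM). CTSB exceeded CAPNS1 in 24 of 25 libraries, CAPNS1 exceeded CTSD in 24 of 25 and CTSD exceeded CAPN1 in 25 of 25. CAPN1, CTSL and CAPN3 were not separated: CAPN1 was above CTSL in 15 of 25 libraries and CTSL above CAPN3 in 15 of 25. The exceptions in the upper part of the order were D10000 replicate 27, where CAPNS1 exceeded CTSB, and control replicate 23, where CTSD exceeded CAPNS1. By reads counted per annotated gene, CAPNS1 thus stood between CTSB and CTSD and above the large calpain subunits it binds. Whether each annotated gene reaches the 3' end that QuantSeq reads was not tested, so this order need not be that of the transcripts.

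The wider families were read from lists of other calpains, other cathepsins, and cystatins with legumain. Of 11 other calpains with an identifier 5 were tested, and these stood near CAPN1 in level: CAPN6 at a median of 12.4 CPM, CAPN7 at 8.85, CAPN15 at 8.499, CAPN10 at 7.69 and CAPN5 at 3.16. CAPN9, CAPN11, CAPN12 and CAPN14 had 0 reads. Of 9 other cathepsins 8 were tested, led by CTSS, the cathepsin of antigen-presenting cells, at 223 CPM, and CTSV at 147 CPM. The pig symbols of CTSL and CTSV are not settled between sources. The RefSeq gene table for Sscrofa11.1 lists CTSL as a synonym of its CTSV gene and also holds a separate CTSL gene, so the transcript at 147 CPM may carry the name cathepsin L elsewhere. CTSV, singled out after its values were seen, ran from 31.5 through 133 to 205 CPM in the control, from 55.3 through 165 to 301 in D5000 and from 28.5 through 178 to 301 in D10000. In D10000 replicate 27 CTSV was at its lowest (28.5 CPM), whereas CTSL there stood at 17.6 CPM, above its median. Among the inhibitors, cystatin C (CST3) had a median of 319 CPM and cystatin B (CSTB) one of 92.5 CPM.

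**Figure D2:**
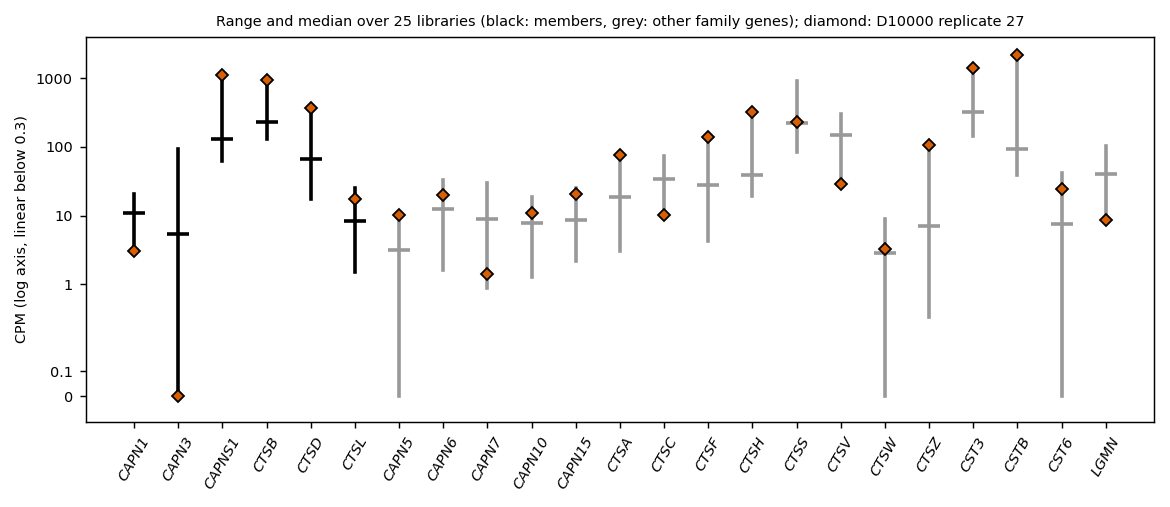
Level in CPM (log axis, linear near 0) of the 6 tested genes (black) and of the tested genes of the other calpain, other cathepsin and cystatin lists (grey). Lines run from the lowest to the highest of 25 libraries, bars mark the median and diamonds mark D10000 replicate 27, which tops the range for CSTB (2182 CPM), CST3 (1403 CPM), CTSH (325 CPM) and CTSZ (107 CPM) and ends it at the bottom for CAPN3, CTSC (10.0 CPM), CTSV and LGMN (8.63 CPM).

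Within the families, some genes were high and others low in D10000 replicate 27. CAPNS1, CTSB and CTSD stood there at 8.85, 4.17 and 5.97 times the median of the other 24 libraries. CSTB stood at 2182 CPM against 39.1 to 166 CPM elsewhere, CTSH at 325 against 19.3 to 86.9 CPM, and the lysosomal membrane protein gene LAMP1 at 2840 against 259 to 772 CPM. CAPN3, CAPN1 (3.03 CPM), CTSC and LGMN were low in it. In this library the fast fibre markers summed to 1597 CPM against 9789 to 42295 CPM elsewhere, the fibroblast markers to 6865 CPM against 633 to 2871, and the 9 macrophage markers to 516 CPM against 81.4 to 480. The part of these other cell types in the member levels was not tested, and in bulk muscle fewer cells of a type and less RNA per cell cannot be told apart.

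Both dose comparisons asked what added vitamin D3 does to these transcripts, and none of the 6 tested genes passed the threshold in either. At 5000 IU/kg, 0 of 6 passed an adjusted p of 0.05 (edgeR quasi-likelihood test, Benjamini-Hochberg over 10992 genes), beside 0% of all genes tested, and 0 of 6 had an unadjusted p under 0.05, beside 3.38% of all genes (371). On the log2 scale CTSD differed from the control by -0.49 ± 0.40 (SE, 8 pigs a diet; edgeR adjusted p = 0.999), which is 0.714-fold with a 95% interval of 0.405 to 1.26. CTSL stood at 0.54 ± 0.39 and 1.45-fold (0.837 to 2.51), and CAPN3 at 0.85 ± 0.91 and 1.80-fold (0.492 to 6.59). The CAPN3 value rested on D5000 replicate 18, without which it was 0.13. CTSB stood at 0.25 ± 0.27, CAPNS1 at 0.23 ± 0.39 and CAPN1 at 0.08 ± 0.41, with 1.05-fold (0.592 to 1.87) for CAPN1. In sign, 5 of 6 were higher than in the control (all but CTSD), beside 51% of all genes, and their median was 0.24 beside 0.01 over all genes. Without D10000 replicate 27, which enters this comparison through the shared spread, 0 of 6 passed (0% of all genes), 0 of 6 had an unadjusted p under 0.05 (4.34% of all genes) and 5 of 6 were higher (51.7%).

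At 10000 IU/kg, again 0 of 6 passed the adjusted threshold in edgeR, beside 0% of all genes, and 0 of 6 had an unadjusted p under 0.05, beside 2.39% of all genes (263). For CAPNS1 the log2 difference was 0.64 ± 0.38 (SE, 9 pigs against 8; edgeR adjusted p = 1.00), that is 1.56-fold with an interval of 0.912 to 2.67. Without D10000 replicate 27 its value was -0.11 ± 0.25. CTSB moved from 0.41 ± 0.27 to 0.10 ± 0.21 when that replicate was left out, and CTSD from 0.10 ± 0.39 to -0.40 ± 0.32. For CAPN1 the values were -0.03 ± 0.40 and 0.11 ± 0.37, and for CTSL 0.28 ± 0.38 and 0.21 ± 0.38. With D5000 replicate 18 and D10000 replicate 2 left out as well, CTSL stood at -0.0192, CAPN1 at 0.20, CAPNS1 at -0.11 and CTSD at -0.26. CAPN3 stood at 0.65 ± 0.89 with all libraries, at -0.80 without D10000 replicate 2, and at -0.60 without D5000 replicate 18, D10000 replicate 2 and D10000 replicate 27 together. In sign, 5 of 6 were higher with all libraries, beside 57.2% of all genes, and 4 of 6 without D10000 replicate 27, beside 51.8%. In that fit 0 of 6 passed (0% of all genes) and 0 of 6 had an unadjusted p under 0.05 (1.76% of all genes). The median of the 6 moved from 0.34 to 0.11, and that of all genes from 0.07 to 0.02.

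Between the doses 0 of 6 passed in edgeR, beside 0% of all genes, and 0 of 6 had an unadjusted p under 0.05, beside 2.94% (323 genes). CTSD stood highest at D10000 relative to D5000, at 0.59 ± 0.39, and at 0.09 ± 0.32 without D10000 replicate 27. CAPNS1 moved from 0.41 ± 0.38 to -0.34 ± 0.25 in the same way. Of the 6 genes 3 were higher at D10000, beside 54.6% of all genes, and 2 without D10000 replicate 27, beside 50%. The joint test of both doses called 0 of 6 genes and 0% of all genes (edgeR), with 0 of 6 under an unadjusted p of 0.05 beside 2.66% (292 genes). Without D10000 replicate 27 the unadjusted counts of members were again 0 of 6 between the doses (2.02% of all genes) and 0 of 6 in the joint test (2.07%). The 3 comparisons share libraries, so their values are not independent. The widths of the intervals show what 8 or 9 pigs per diet can resolve: for CTSB at 5000 IU/kg the interval ran from 0.807-fold to 1.75-fold, and for CAPN3 from 0.492-fold to 6.59-fold.

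**Figure D3:**
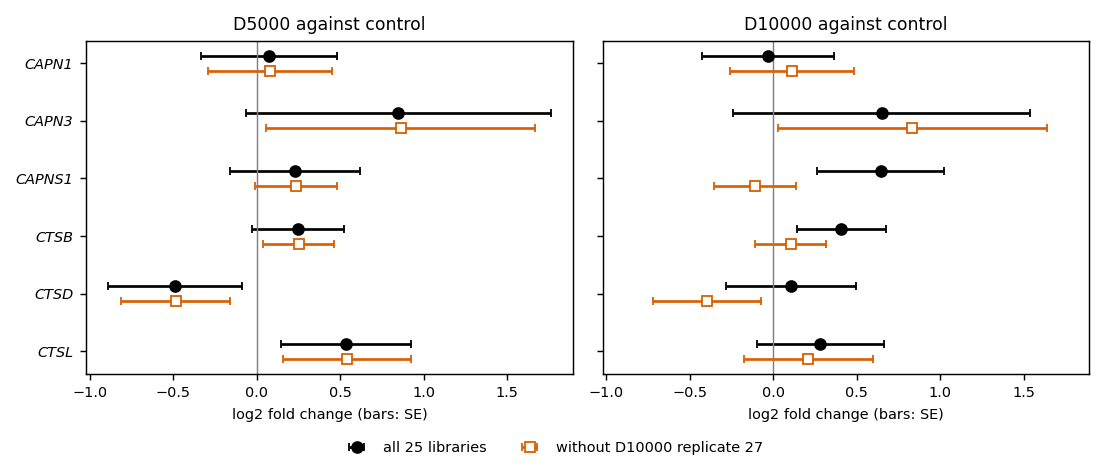
Log2 fold changes of the 6 tested genes at each dose against the control, with SE bars, fitted with all 25 libraries (filled) and without D10000 replicate 27 (open). At 10000 IU/kg CAPNS1 falls from 0.64 to -0.11 and CTSD from 0.10 to -0.40 when that library is left out, while at 5000 IU/kg the paired values nearly coincide.

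The other genes of these pathways gave 0 calls at either dose (edgeR), beside 0% of all genes. At an unadjusted p under 0.05 they gave 0 of 59 at 5000 IU/kg, beside 3.38% of all genes, and 3 of 59 at 10000 IU/kg (CTSC, CSTB and AHNAK), beside 2.39% of all genes. At 5000 IU/kg, 3 of 5 other calpains, 4 of 8 other cathepsins, 1 of 4 cystatin and legumain genes and 15 of 28 lysosome genes were higher than in the control, with medians of 0.16, -0.03, -0.17 and 0.07, beside 51% of all genes and a median of 0.01. At 10000 IU/kg the counts were 2 of 5, 6 of 8, 4 of 4 and 18 of 28, with medians of -0.03, 0.19, 0.16 and 0.12, beside 57.2% of all genes and a median of 0.07. Without D10000 replicate 27 they became 1 of 5, 3 of 8, 1 of 4 and 10 of 28, with medians of -0.13, -0.36, -0.09 and -0.09, beside 51.8% of all genes and a median of 0.02. On the list of calpain substrates and CAPN3 partners in muscle, values were above the control in 5 of 14 at 5000 IU/kg (median -0.17) and in 4 of 14 at 10000 IU/kg (median -0.30, and -0.16 without D10000 replicate 27).

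Among the 3 genes per list with the smallest joint p, AHNAK, a large membrane-associated scaffold, and CSTB had the smallest. AHNAK stood at 0.17 ± 0.98 at 5000 IU/kg and at 2.58 ± 1.00 at 10000 IU/kg (edgeR adjusted p = 1.00), and at 0.20 ± 0.74 without D10000 replicate 27. CSTB stood at -0.27 ± 0.61 and 1.32 ± 0.60, and at -0.18 ± 0.34 at the higher dose without that replicate. CTSC, the dipeptidyl peptidase that activates granzymes, did not shrink in this way: it stood at 0.27 ± 0.34 and 0.67 ± 0.33 (edgeR adjusted p = 1.00 at 10000 IU/kg), and at 0.83 ± 0.29 without D10000 replicate 27. Its CPM had medians of 24.0 in the control, 31.5 in D5000 and 40.6 in D10000, with overlapping ranges.

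Of the other named cathepsins at 10000 IU/kg, CTSZ stood at 0.79 ± 0.61 and CTSA at -0.18 ± 0.42, and without D10000 replicate 27 at -0.38 ± 0.50 and -0.55 ± 0.40. Among the calpains CAPN10 stood at -0.70 ± 0.44, CAPN6 at -0.12 ± 0.46 and CAPN7 at 0.30 ± 0.47, with -0.76, -0.10 and 0.47 without that replicate. The lysosomal lipid enzymes ASAH1 and LIPA stood at 0.91 ± 0.53 and 0.76 ± 0.40, and without it at -0.36 and 0.16. None of these passed the threshold. LAMP1 moved likewise from 0.55 ± 0.33 to -0.05 and the focal adhesion gene TLN1 from 0.82 ± 0.42 to -0.12. LGMN, the legumain gene, stood at 0.20 ± 0.35 and 0.36 without that replicate, CST6 at 0.03 ± 0.69 and -0.00341, and the fast troponin gene TNNT3 at -0.73 ± 0.46 and -0.56.

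Across libraries the 6 genes did not move as 1 group. Pearson r was taken on log2 CPM centred within diets and Spearman rho on uncentred values, both with permutation p (two-sided) adjusted over 15 pairs. With 25 libraries 1 pair passed on r: CAPN1 and CTSL had r = -0.55 (permutation adjusted p = 0.0457) and rho = -0.50 (adjusted p = 0.0814). It was r = -0.39 without the 2 libraries farthest from the CAPN1 median, D10000 replicate 27 and control replicate 28, and -0.52 (adjusted p = 0.0604) without D10000 replicate 27 alone. CAPN1 and CTSD had r = 0.21 (permutation adjusted p = 0.558; rho = 0.34, adjusted p = 0.348) with 25 libraries, and r = 0.65 (adjusted p = 0.0112) without D10000 replicate 27. Leaving out instead the 2 libraries of lowest assigned share gave r = 0.01 for that pair.

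CAPN3 and CTSD had r = -0.59 (permutation adjusted p = 0.0595) and rho = -0.32 (adjusted p = 0.348). Without the 2 libraries of lowest assigned share r was -0.33, and without D10000 replicate 27 it was -0.45. CAPNS1 and CTSB had r = 0.67 (permutation adjusted p = 0.151; rho = 0.23, adjusted p = 0.586) with all libraries and r = 0.08 without D10000 replicate 27. CTSB and CTSD had r = 0.44 and -0.02 in the same pair of fits, and CAPNS1 and CTSD 0.51 and 0.11. For the 3 pairs among CAPNS1, CTSB and CTSD, r was thus at most 0.11 over the other 24 libraries.

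**Figure D4:**
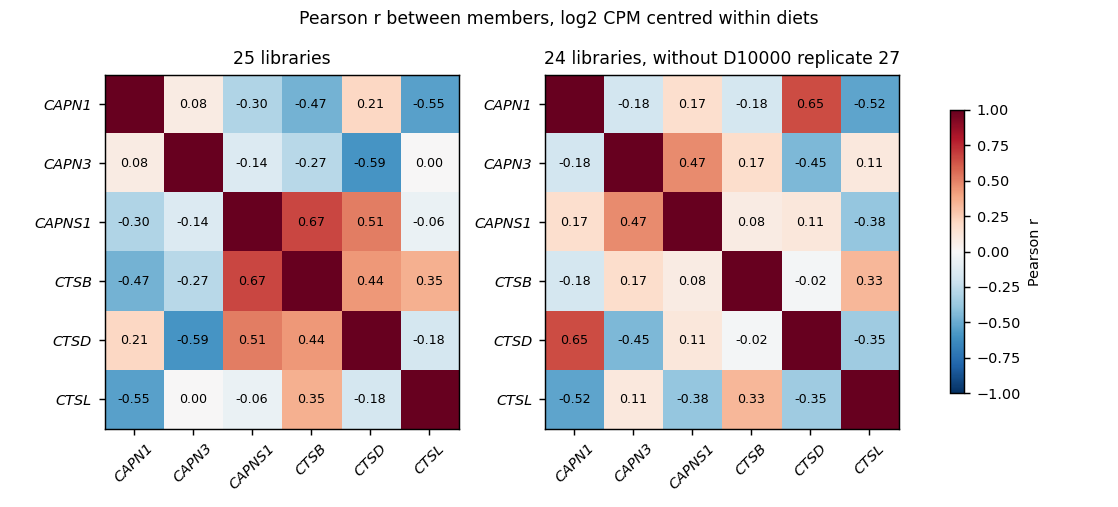
Pearson r between the 6 tested genes on log2 CPM centred within diets, over 25 libraries (left) and over 24 libraries without D10000 replicate 27 (right). The block of positive values among CAPNS1, CTSB and CTSD (0.67, 0.51 and 0.44) shrinks to 0.08, 0.11 and -0.02 on the right, where CAPN1 and CTSD stand at 0.65.

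Each gene was also set against 3 measures of a library: the mean of slow minus that of fast fibre markers, the mean of macrophage markers, and the share of reads assigned to genes. Of 18 relations, 1 passed. CTSL was higher in libraries with a lower assigned share, at r = -0.60 (permutation adjusted p = 0.0162) and rho = -0.71 (adjusted p = 0.00234). Without the 2 libraries farthest from the median share, D10000 replicate 2 and D5000 replicate 18, r was -0.61 (adjusted p = 0.0401), and without D10000 replicate 27 it was -0.62. CAPN3 (r = -0.34, permutation adjusted p = 0.364, rho = -0.14) and CTSD (r = 0.35, adjusted p = 0.364, rho = 0.07) leaned on those 2 libraries, without which r was 0.13 and -0.25. By diet the assigned share was 58.4% ± 8.76 (SD, n = 8) in the control, 51.8% ± 12.6 (SD, n = 8) in D5000 and 53.5% ± 13.1 (SD, n = 9) in D10000. With that share as a covariate CTSL did not pass at either dose, and the size of its values in that fit is not given here.

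**Figure D5:**
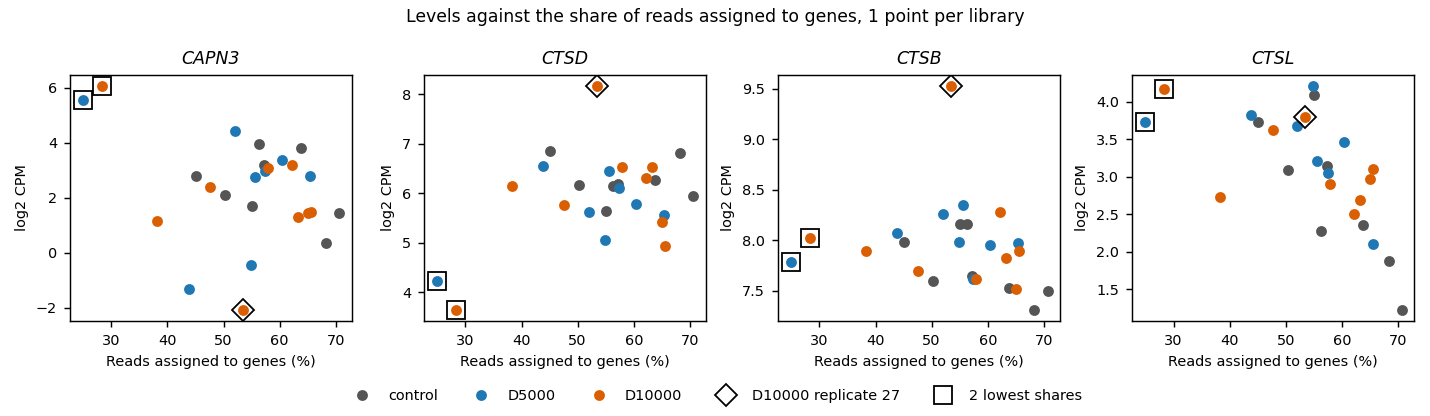
Log2 CPM of CAPN3, CTSD, CTSB and CTSL against the percent of reads assigned to genes, 1 point per library, coloured by diet. CTSL is lower at higher shares (r = -0.60), whereas for CAPN3 and CTSD the relation lies in the 2 libraries of lowest share (squares), and D10000 replicate 27 (diamond) is the highest for CTSB and CTSD.

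With fibre type no relation passed (0 of 6). CAPNS1 had the highest r with slow minus fast markers, 0.29 (permutation adjusted p = 0.364; rho = 0.39, adjusted p = 0.274), and CAPN3 had 0.14 (adjusted p = 0.778). With macrophage markers CTSB had r = 0.40 (permutation adjusted p = 0.339; rho = 0.35), CTSD 0.39 (adjusted p = 0.339; rho = 0.27) and CAPN3 -0.44 (adjusted p = 0.339; rho = -0.39). None of these held an adjusted p under the threshold without D10000 replicate 27 either.

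The 6 genes were set against the mean of the tested liver markers as well, a family of 6 relations chosen after seeing the data. CTSL was higher where liver markers were higher, at r = 0.50 (permutation adjusted p = 0.0387) and rho = 0.56 (adjusted p = 0.0257). Its r was 0.77 without the 2 libraries farthest from the median of the liver markers. It was 0.67 (permutation adjusted p = 0.0039) without D10000 replicate 27 and 0.46 (adjusted p = 0.0786) without the 2 libraries of lowest assigned share. CAPNS1 was lower where liver markers were higher, at r = -0.65 (permutation adjusted p = 0.0039) and rho = -0.53 (adjusted p = 0.0257). For CAPNS1 r was -0.48 without the 2 libraries farthest from the median of the liver markers. It was -0.66 (permutation adjusted p = 0.0069) without the 2 of lowest assigned share, and -0.54 (adjusted p = 0.0286) without D10000 replicate 27. CTSB had r = -0.08 (permutation adjusted p = 0.761; rho = 0.35) with all libraries and 0.52 (adjusted p = 0.0286) without that replicate. The liver markers and the assigned share were not separate measures. D10000 replicate 7, with the highest liver mean (log2 CPM 11.1), had a share of 38.2%. Control replicate 14, with the highest share (70.6%), had a liver mean of 8.70, though D10000 replicate 27 had the lowest mean (7.87) at 53.5%. Their r was not computed, so the relations of CTSL with the 2 measures cannot be told apart. The part of liver transcripts in the CTSL levels was not tested.

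The genes most alike in pattern over the 25 libraries, by Pearson r of centred log2 CPM among all tested genes with a symbol, differed for each gene. For CAPN1 these were UBALD2 (r = 0.87), EEF1A2 (0.83), the elongation factor isoform of muscle and neurons, and TMEM38A (0.81), a potassium channel of the sarcoplasmic reticulum, and without D10000 replicate 27 UBALD2 (0.86), B3GAT3 (0.82) and NDUFS8 (0.82). For CAPN3 they were ZNF654 (0.87), PLAGL1 (0.83) and VPS13D (0.80), and the same 3 led without D10000 replicate 27. For CTSL they were DUSP6 (0.77), SDSL (0.75) and HGFAC (0.74), and without that replicate HGFAC (0.81), CREB3L3 (0.78) and DUSP6 (0.77). HGFAC and CREB3L3 are known as genes of the liver.

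For CTSD the leading genes were PLD3 (0.86), a phospholipase-like protein of the lysosome, TNIP1 (0.86) and PFDN5 (0.84). Without D10000 replicate 27 they were GFUS (0.85), TNIP1 (0.84) and RUVBL2 (0.83). For CTSB they were ORMDL3 (0.91), ACAA1 (0.89) and TKT (0.88) with all libraries and FOLR2 (0.78), a folate receptor of macrophages, ORMDL3 (0.76) and ACAA1 (0.74) without that replicate. For CAPNS1 they were ATP9A (0.88), RPLP2 (0.86) and CNP (0.85), and COPE (0.83), SERBP1 (0.81) and PPM1G (0.81) without it, with no gene shared. These r values were picked as the highest of all tested genes and describe these libraries only.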

How the data were processed

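Per the labels' protocols, RNA was isolated with a Total RNA Mini kit and libraries were made with a QuantSeq FWD kit. The deposited values are raw counts of reads per Ensembl pig gene, with 1 file per pig. FastQC is named in the submitters' processing notes, while the sources used here name no aligner, counter, genome build or annotation. Summary lines and spike-ins (1 read in all) were left out. One of 25880 identifiers is missing from the file of D10000 replicate 27, which leaves 25879, of which 14856 have a symbol.

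Counts were filtered with filterByExpr (minimum count 10, minimum total 15), scaled by TMM and fitted with glmQLFit and glmQLFTest of edgeR 4.0.16 (robust, R 4.3.3) in 1 fit of 25 libraries on diet alone. The labels give no litter for a pig, so none entered the fit. P-values were adjusted by Benjamini-Hochberg over 10992 genes (threshold 0.05). CPM are counts over total gene counts, and log2 CPM for relations and spreads use TMM-scaled totals and a prior count of 2. Relations had 100000 permutations within diets. Alternatives were RLE scaling, no filter, DESeq2 1.42.0, voom of limma 3.58.1, the assigned share as a covariate, and each library left out; leaving out the 2 libraries of lowest assigned share, those with D10000 replicate 27, and the relations between members and with liver markers were added after seeing the data. Named genes are the 8 symbols, the 3 genes per list with the smallest joint p, and the 3 most alike genes per symbol. CTSS, CTSV, CTSH, CST3 and the other calpains whose levels are given fall outside this rule and were chosen after their values were seen. The genes and lists were chosen with earlier results of these data known. CAST had no identifier, so 2 planned ratios were not tested, and 18 of 24 planned relations could be computed.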

Additional observations from a re-analysis of the deposited data

Results flagged for a closer look

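Within each diet, a library was called apart where its gap to the nearest other library, over the range of the diet, exceeded the 95% critical value of Dixon's test. This was checked for 23 combinations of a measure and a diet (CPM of 7 genes and the assigned share, without CAPN2 in D5000, which was 0 in all 8 libraries), and 8 were marked. Chance marks about 1 in 20 groups of normally distributed values, a rate that need not hold for skewed CPM or for CAPN2, which was 0 in most libraries. D10000 replicate 27 was marked for CAPNS1 at 1121 CPM (next library 178), for CTSB at 948 CPM (next 365), for CTSD at 369 CPM (next 98.4) and for CAPN2 at 2.02 CPM (next 0.63). These 4 marks are 1 library, in which adipocyte markers summed to 8849 CPM. For CAPN3, D10000 replicate 2 was marked at 94.2 CPM (next 8.74) and D5000 replicate 18 at 71.4 CPM (next 18.7), and these were the libraries with the lowest assigned shares, 28.4% and 24.9%. In the control, replicate 28 was marked for CAPN2 at 1.22 CPM (next 0.557) and replicate 23 for CTSD at 155 CPM (next 95.8). The part of adipocyte transcripts and of the assigned share in these values was not tested.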

How the results depend on the processing

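No paired analysis was possible because animal numbers are not shared between diets and litters are not in the labels. No gene passed the adjusted threshold with edgeR, with RLE scaling, without the filter, with DESeq2, with voom, with the covariate or with a library left out. At an unadjusted p under 0.05 the counts for 5000 and 10000 IU/kg against control were 371 and 263 with edgeR, 510 and 339 with DESeq2, 395 and 214 with voom, and 1618 and 1537 without the filter. Across 576 alternative fold changes of the 6 genes 0 passed, and the smallest adjusted p was 0.694. DESeq2, which replaces outlying counts by Cook's distance, gave CAPNS1 -0.0884 against control and -0.33 against D5000 at 10000 IU/kg. Voom gave CAPN3 -0.064 at 5000 and -1.32 at 10000 IU/kg, CTSD -0.31 at 10000 IU/kg and CAPNS1 -0.054 between doses. At 10000 IU/kg against control the covariate gave CAPN1 0.046 and CAPN3 -0.43, and leaving out the 2 libraries of lowest assigned share gave CAPN1 0.0558 and CAPN3 -0.80. Without these and D10000 replicate 27, CAPN1 was 0.20, CAPN3 -0.60, CAPNS1 -0.11, CTSD -0.26 and CTSL -0.0192, and between doses CAPN1 was 0.0312, CAPNS1 -0.31 and CTSB -0.20. The cause of these reversals was not tested.

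With each library left out in turn, CAPN1 ran from -0.0741 to 0.19 at 5000 IU/kg, from -0.27 to 0.11 at 10000 IU/kg and from -0.34 to 0.041 between doses. CAPN3 ran from -0.80 (without D10000 replicate 2) to 0.91 at 10000 IU/kg and from -1.66 (the same) to 0.53 (without D5000 replicate 18) between doses. CAPNS1 ran from -0.11 to 0.79 and from -0.34 to 0.56, CTSB from -0.15 to 0.22 between doses and CTSD from -0.40 to 0.29 at 10000 IU/kg, with each of these minima reached without D10000 replicate 27. CTSL ran from 0.39 to 0.80 at 5000 IU/kg and from 0.14 to 0.54 at 10000 IU/kg, with the minima reached without control replicate 14 and the maxima without control replicate 28, and from -0.40 to -0.11 between doses. In the relations, r of CTSL with slow minus fast markers was 0.0425 without centring. Leaving out the 2 libraries of lowest assigned share turned r of CAPN3 and CTSD with that share to 0.13 and -0.25, and r of CTSL with CAPN3 and CTSD to -0.23 and 0.0545. It left 0 of 15 relations between the genes and 1 of 6 with liver markers past the threshold. Leaving out D10000 replicate 27 turned r with macrophage markers to 0.0835 for CAPN1 and -0.25 for CAPNS1, and with liver markers to -0.15 for CAPN1, -0.0255 for CAPN3 and 0.52 for CTSB. Between genes it gave -0.18 for CAPN1 and CAPN3, 0.17 for CAPN1 and CAPNS1, 0.47 for CAPN3 and CAPNS1, 0.17 for CAPN3 and CTSB and -0.0158 for CTSB and CTSD. Read depth limits CAPN2, with 54 reads, more than the genes tested.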
